A study of Mus musculus with 4 samples.

Results

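Genes of glycolysis, lactate handling and the hypoxia response were followed in bulge stem cells of mice given CSA and in the same cells of mice given vehicle. The set held 47 genes listed by name. A gene was measured where at least 1 row of the array table was assigned by the platform annotation to that gene alone, which was so for 42 of the 47, out of 19935 genes measured in all. Eno1, Gpi1, G6pdx, Mpc2 and Pfkfb1 had no such row and were not analysed here.

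The CSA group and the vehicle group each held 2 biological replicates, all taken from CD-1 males aged 56 days after birth, when the hair cycle was in its second resting phase (telogen). CSA mice had received 100 mg/kg CSA in the peritoneum for 3 days, and vehicle mice the carrier alone by the same route. CSA is not written out in the labels; calcineurin studies use it for cyclosporine A, an inhibitor of that phosphatase. Cells carrying both alpha6 integrin and CD34 were sorted from the skin, with no label giving the number of mice behind a sample. No genetic change is named for either group, and the agent was given to the whole animal. By its title the study asked how signalling through calcineurin and Nfatc1 relates to stem cell quiescence in skin.

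Glycolysis splits glucose into pyruvate in the cytosol. Transporters bring glucose in, hexokinases trap it as glucose 6-phosphate, and phosphofructokinase commits it to breakdown. Pyruvate is then reduced to lactate, which leaves through monocarboxylate carriers, or enters the mitochondria to be oxidised by pyruvate dehydrogenase, whose kinases hold that step back. Low oxygen stabilises the transcription factor HIF, which induces many of these genes together, and prolyl hydroxylases mark HIF for destruction when oxygen is present. Hair follicle stem cells are known to use glycolysis and to produce lactate when they leave quiescence.

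Values are log values centred by the authors on a baseline for each row that is not known, with the base taken as 2. They give distance from that baseline, not the amount of RNA, so levels of different genes were not compared. Over all rows the 2 arrays numbered 2 correlated with a Pearson r of 0.516, while the other pairs of arrays lay between 0.02 and 0.168. Over the 42 genes the same pair had an r of 0.672, the 2 vehicle arrays had 0.532 and the 2 CSA arrays had 0.07. These are descriptions across genes that share the same 4 arrays. Of the markers of the sorted cells, Cd34 had values of 1.75 and 3.60 in CSA, with 4.05 and 4.25 in vehicle. Cd34 was thus lower on both CSA arrays than on both vehicle arrays, and lowest on CSA replicate 1. Its difference of -1.47 was the lowest of the 19 bulge markers. Itga6 had values of -0.70 and -0.53 in CSA, with -0.998 and 0.08 in vehicle. The medians over 19 bulge markers were 0.31 and 0.80 in CSA, with 0.35 and 0.98 in vehicle. In a sorted population, fewer cells of a type and less RNA per cell cannot be told apart.

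Hk2, which encodes hexokinase 2, had the largest difference of the set and was higher in CSA. Its neighbour in function Slc2a1, the glucose transporter GLUT1, the mitophagy receptor gene Bnip3, the HIF prolyl hydroxylase gene Egln3 and the muscle-type enolase gene Eno3 were also higher on both CSA arrays than on both vehicle arrays. Pdk2, a pyruvate dehydrogenase kinase, and Ndrg1, a gene induced by hypoxia and by differentiation, were lower on both CSA arrays. The remaining genes of glycolysis and of lactate went both ways, with differences between -0.51 and 0.97. No difference passed the test over all genes.

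With limma 0 of 19935 genes passed an adjusted p of 0.05, a background of 0.0%, and every gene of the set had an adjusted p of 0.999. At an unadjusted p under 0.05 limma had 565 genes, which is 2.83% of all (1.83% higher in CSA), and 1 of the 42, Bnip3, which was higher. At least 1.5-fold apart without overlap of the groups were 7 of the 42 (16.7%), 5 higher in CSA and 2 lower, beside a background of 5.9% of all genes (3.91% higher and 1.99% lower). The groups did not overlap at any size for 14 of the 42 (33.3%), beside 26.3% of all genes. The genes of the set also varied more within the groups, with a median standard deviation of 0.41 beside 0.22 over all genes. The part of this spread in the 1.5-fold share was not tested. The genes of the set were proposed with earlier results of these data known, so these shares are descriptions and carry no test. Means were higher in CSA for 18 genes and lower for 24, with a median difference of -0.08 (all genes: 41.1% higher and 58.9% lower, median -0.04). The sign of that median changed with the arrays used: it came to 0.17 when CSA replicate 1 was left out and to 0.05 without vehicle replicate 2, against -0.12 without CSA replicate 2 and -0.14 without vehicle replicate 1.

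**Figure D1:**
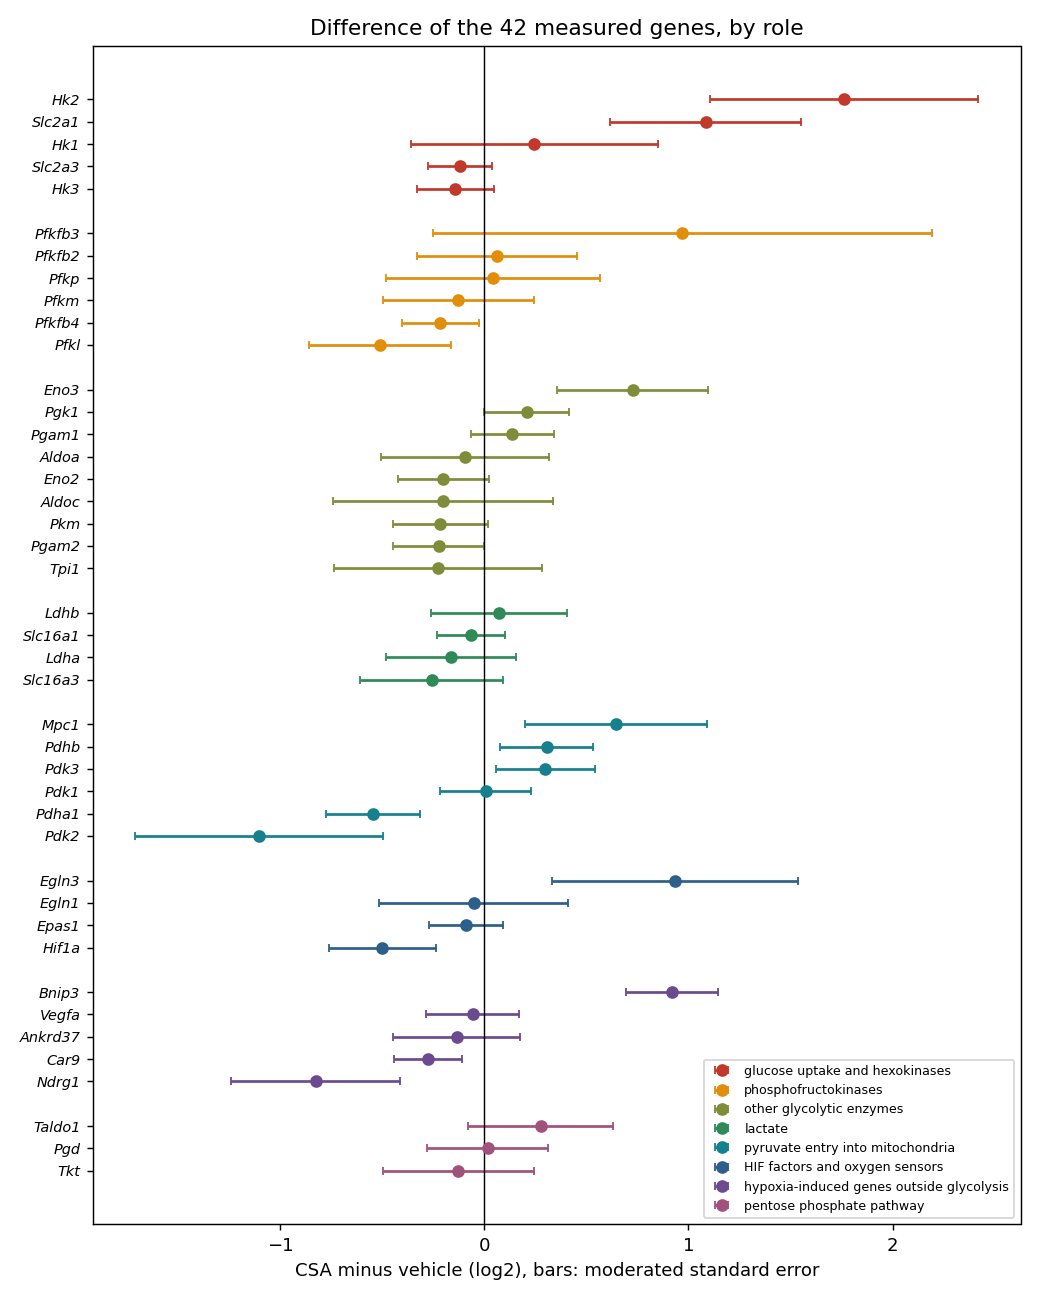
The difference between CSA and vehicle (horizontal axis, log2) is shown for each of the 42 measured genes, grouped by role from top to bottom; bars are limma's moderated standard errors from 2 arrays per group. Hk2 at 1.76 and Slc2a1 at 1.08 lie farthest to the right, Pdk2 at -1.10 and Ndrg1 at -0.83 farthest to the left, and 27 of the 42 genes lie within 1 standard error of 0 (64.3%, all genes 67.9%).

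Among the genes of glucose uptake and phosphorylation, Hk2 was 2.60 and 0.97 on the CSA arrays, against -0.40 and 0.45 on the vehicle arrays. The groups did not overlap, and the lower CSA array stood 0.52 above the higher vehicle array. Hk2 differed by 1.76 ± 0.66 (limma; ± gives the moderated standard error from 2 arrays in each group here and below; unadjusted p = 0.0536, adjusted p = 0.999), which made Hk2 number 41 of all 19935 genes by size of difference. Most of this size came from the replicate 1 arrays: CSA minus vehicle was 3.00 between the arrays numbered 1 and 0.52 between those numbered 2, and without CSA replicate 1 the difference was 0.95.

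Slc2a1 had values of 0.40 and 0.14 in CSA, against -1.44 and -0.20 in vehicle. Here the CSA arrays were close together and vehicle replicate 1 stood far below the other arrays. The difference was 1.08 ± 0.47 (limma unadjusted p = 0.0793), and it was 0.46 without vehicle replicate 1. The other hexokinases and the other glucose transporter had differences nearer to 0. Hk1, the hexokinase of most tissues, had values of -0.31 and 0.48 in CSA and -0.90 and 0.58 in vehicle, so that the groups overlapped widely (0.25 ± 0.60). A second row for Hk1 differed by -0.06 ± 0.18, and the sign of the first row's difference turned without vehicle replicate 1 (-0.49) and without CSA replicate 2 (-0.15). Row numbers mostly follow the chromosomes. That of the second row lies between those of Tkt and Pdhb on chromosome 14, while Hk1 lies on chromosome 10, so this row may not read Hk1 itself. Hk3, the hexokinase known from white blood cells, had values of 0.03 and -0.10 in CSA and 0.25 and -0.03 in vehicle (-0.14 ± 0.19). Slc2a3, which encodes the high-affinity transporter GLUT3, stayed within 0.16 of its baseline on all arrays and differed by -0.12 ± 0.16.

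**Figure D2:**
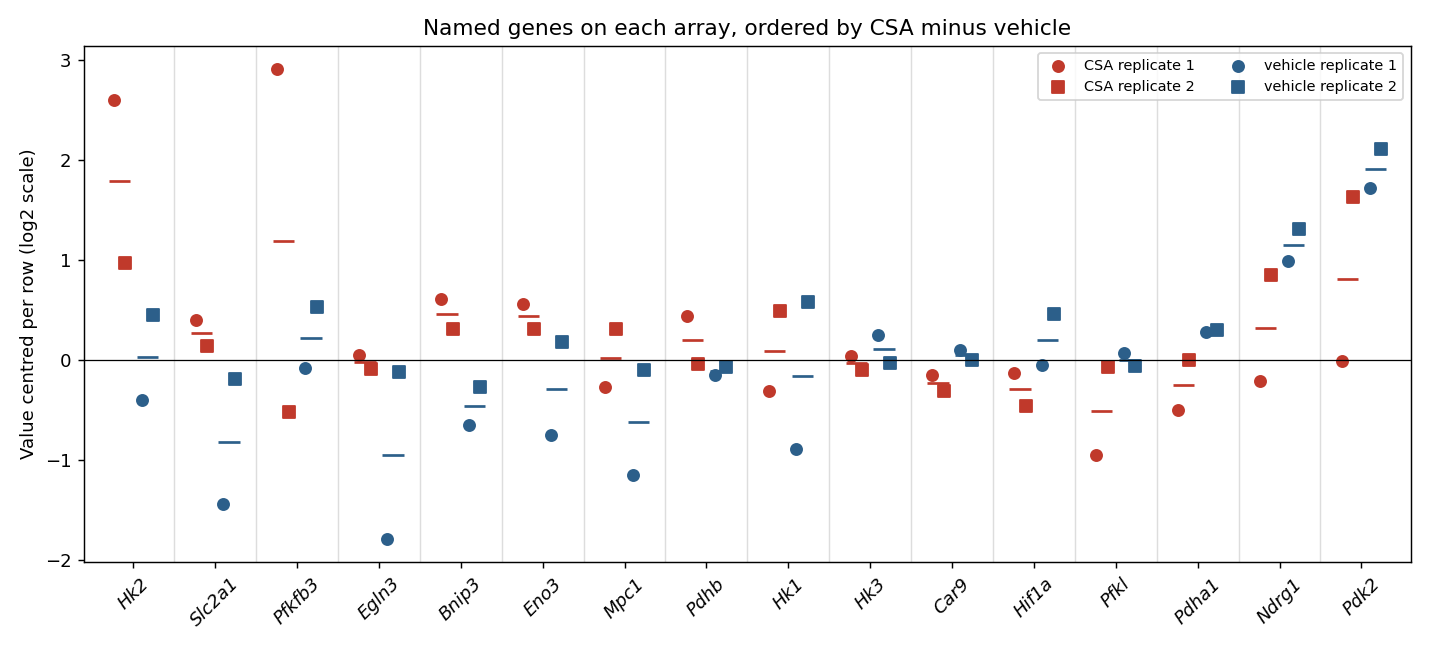
Values centred per row (vertical axis, log2 scale) are shown for 16 named genes on each of the 4 arrays, with CSA in red and vehicle in blue, circles for replicate 1 and squares for replicate 2; short lines are group means of 2 arrays. Hk2 and Pfkfb3 are highest on CSA replicate 1 (2.60 and 2.90), and Slc2a1, Egln3 and Eno3 are lowest on vehicle replicate 1 (-1.44, -1.79 and -0.76).

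At the phosphofructokinase step the differences were split, 3 higher and 3 lower of 6, and 0 stood 1.5-fold apart without overlap. Pfkfb3, which makes the activator fructose 2,6-bisphosphate, had values of 2.90 and -0.52 in CSA, against -0.08 and 0.53 in vehicle; it was chosen after its values were seen. One CSA array lay above both vehicle arrays and the other below them. Its difference of 0.97 ± 1.22 therefore rested on CSA replicate 1, and it was -0.74 without that array. Pfkl, the liver-type phosphofructokinase subunit, had values of -0.95 and -0.07 in CSA and 0.06 and -0.06 in vehicle (-0.51 ± 0.35). That difference was -0.07 without CSA replicate 1. The muscle and platelet subunit genes Pfkm and Pfkp differed by -0.13 ± 0.37 and 0.04 ± 0.52, and the bifunctional enzyme genes Pfkfb2 and Pfkfb4 by 0.06 ± 0.39 and -0.21 ± 0.19.

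Of the 9 other enzymes between glucose 6-phosphate and pyruvate 3 were higher and 6 lower in CSA. Eno3 had values of 0.56 and 0.31 in CSA, against -0.76 and 0.17 in vehicle. The groups stood apart by 0.14, with vehicle replicate 1 far below the rest. The difference was 0.73 ± 0.37 (limma unadjusted p = 0.118), and it was 0.26 without vehicle replicate 1. It was 0.57 after quantile normalization, just under the 1.5-fold limit of 0.585 on the log2 scale. The neuronal enolase gene Eno2 differed by -0.20 ± 0.22. The aldolase genes Aldoa and Aldoc, the triosephosphate isomerase gene Tpi1, the phosphoglycerate mutase gene Pgam2 and the pyruvate kinase gene Pkm lay between -0.23 and -0.09. A second row for Pkm differed by -0.27 ± 0.32. The number of that row lies between those of Pgd on chromosome 4 and Hk2 on chromosome 6, while Pkm lies on chromosome 9. The phosphoglycerate kinase gene Pgk1 differed by 0.21 ± 0.21 and the mutase gene Pgam1 by 0.14 ± 0.20. Pgk1 and Pgam1 each had 3 rows, some with nearly the same values, and both genes have near-identical copies elsewhere in the mouse genome, so their signal may be shared with those copies.

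The 4 lactate genes all lay within 1 standard error of 0. Ldha, the lactate dehydrogenase subunit that favours lactate production, had values of -0.68 and 0.11 in CSA and -0.13 and -0.11 in vehicle. The CSA arrays lay on both sides of the vehicle arrays (-0.16 ± 0.32). Ldhb, whose product favours the reverse reaction, differed by 0.07 ± 0.33. A second row for Ldhb had the opposite sign (-0.20 ± 0.28). The number of the first row lies close to that of a row of Pgam1 on chromosome 19. That of the second lies close to Tpi1 on chromosome 6, where Ldhb lies, so the first row may read a copy. The lactate carrier genes Slc16a1 and Slc16a3, known as MCT1 and MCT4, differed by -0.07 ± 0.17 and -0.26 ± 0.35.

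At the entry of pyruvate into the mitochondria the largest difference was that of Pdk2, whose product phosphorylates and so inhibits pyruvate dehydrogenase. Pdk2 had values of -0.01 and 1.63 in CSA, against 1.72 and 2.11 in vehicle. The groups were only 0.09 apart, since CSA replicate 2 stood close to the vehicle arrays. The difference was -1.10 ± 0.61 (limma unadjusted p = 0.141), and it was -0.28 without CSA replicate 1.

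Pdha1, the catalytic subunit that this kinase acts on, had values of -0.50 and -0.01 in CSA, against 0.28 and 0.30 in vehicle. The vehicle arrays were nearly equal and both CSA arrays lay below them (-0.54 ± 0.23, limma unadjusted p = 0.0756), with a difference of -0.30 without CSA replicate 1. Pdhb, the partner subunit, had values of 0.43 and -0.04 in CSA and -0.15 and -0.07 in vehicle (0.31 ± 0.23). The groups of Pdhb were 0.03 apart, and its difference was 0.07 without CSA replicate 1. Mpc1, one subunit of the mitochondrial pyruvate carrier, had values of -0.27 and 0.31 in CSA and -1.15 and -0.10 in vehicle, with overlap (0.64 ± 0.44, and 0.12 without vehicle replicate 1). The number of its only row lies between those of Egln3 on chromosome 12 and Pfkp on chromosome 13. Mpc1 itself lies on chromosome 17, so that row may read a copy. The kinase genes Pdk1, a HIF target, and Pdk3 differed by 0.01 ± 0.22 and 0.30 ± 0.24.

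Among the HIF genes, Hif1a, which encodes the alpha subunit regulated by oxygen, had values of -0.13 and -0.46 in CSA, against -0.05 and 0.46 in vehicle. The groups did not overlap but were only 0.08 apart (-0.50 ± 0.26, limma unadjusted p = 0.126), and the difference was -0.24 without vehicle replicate 2. Epas1, which encodes the related alpha subunit HIF2, was below its baseline on all 4 arrays and differed by -0.09 ± 0.18.

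Of the prolyl hydroxylases, Egln3, itself induced by HIF, had values of 0.05 and -0.09 in CSA, against -1.79 and -0.12 in vehicle. Vehicle replicate 1 alone stood apart, and CSA replicate 2 was 0.03 above vehicle replicate 2. The difference of 0.94 ± 0.60 (limma unadjusted p = 0.193) was 0.10 without vehicle replicate 1. Egln1, the main oxygen sensor of most cells, differed by -0.05 ± 0.46 and was lowest on CSA replicate 1 (-1.08) and vehicle replicate 1 (-0.85).

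Bnip3 had the smallest p of the set. It had values of 0.61 and 0.31 in CSA, against -0.65 and -0.28 in vehicle, so that both CSA arrays stood above the baseline and both vehicle arrays below it. The groups were 0.58 apart, and the difference was 0.92 ± 0.23 (limma unadjusted p = 0.0143, adjusted p = 0.999). It stayed between 0.73 and 1.11 when each array was left out. A second row for Bnip3 had values of 0.98 and 0.13 in CSA and -1.81 and -0.12 in vehicle, a difference of 1.52 ± 0.68. The number of that row lies between those of Tkt and Pdhb on chromosome 14, while Bnip3 lies on chromosome 7. That row may therefore read a copy and is not a sure second reading of Bnip3, which was not tested.

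The other 4 hypoxia-induced genes outside glycolysis had lower means in CSA. Ndrg1 had values of -0.21 and 0.85 in CSA, against 0.98 and 1.31 in vehicle, without overlap but with CSA replicate 2 only 0.13 below the vehicle arrays. Its difference of -0.83 ± 0.41 (limma unadjusted p = 0.115) was -0.30 without CSA replicate 1. Car9, the carbonic anhydrase used as a hypoxia marker, had values of -0.15 and -0.31 in CSA and 0.09 and -0.01 in vehicle, a small difference with no overlap (-0.27 ± 0.17). Vegfa, the angiogenic growth factor gene, differed by -0.06 ± 0.23 and Ankrd37 by -0.14 ± 0.31. In the pentose phosphate pathway, which branches off at glucose 6-phosphate and yields NADPH and ribose, Pgd, Tkt and Taldo1 differed by 0.02 ± 0.30, -0.13 ± 0.37 and 0.28 ± 0.35.

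**Figure D3:**
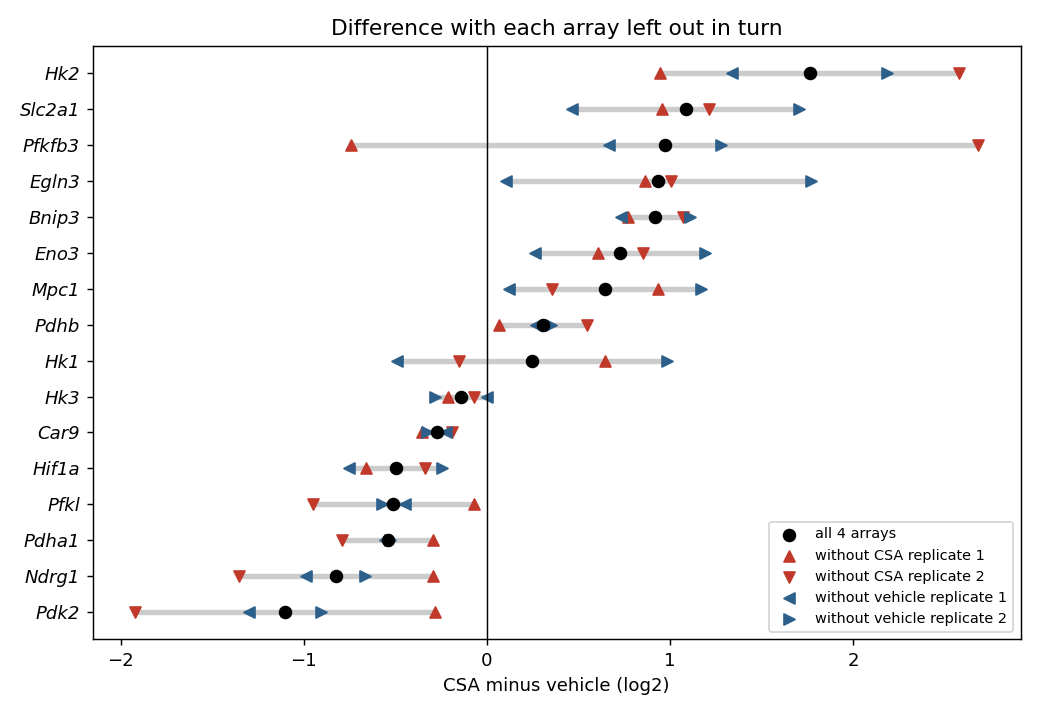
For the 16 named genes the CSA minus vehicle difference (horizontal axis, log2) is shown with all 4 arrays (black) and with each array left out in turn (triangles; red for a CSA array, blue for a vehicle array). Bnip3 moved least among the genes 1.5-fold apart (0.73 to 1.11), Egln3 reached 0.10 without vehicle replicate 1, and Pfkfb3 and Hk1 changed sign.

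The lowest value of a gene lay mostly on a replicate 1 array. CSA replicate 1 was the lowest array for 18 of the 42 genes (42.9%, all genes 22.7%) and vehicle replicate 1 for 14 (33.3%, all genes 21.2%). Vehicle replicate 2 was the lowest for 1 gene (2.4%, all genes 23.3%). The highest values of the set were spread more evenly over the arrays, but not as in all genes. They lay on CSA replicate 1 for 9 genes (21.4%, all genes 21.1%) and on CSA replicate 2 for 11 (26.2%, all genes 20.5%). Vehicle replicate 1 was the highest for 9 (21.4%, all genes 43.2%) and vehicle replicate 2 for 13 (31.0%, all genes 15.2%). Markers of other skin cells moved with vehicle replicate 1, which had the highest value for 12 of 15 markers of epidermal differentiation, 11 of 12 endothelial, 11 of 12 immune, 8 of 12 fibroblast, 9 of 10 muscle, 2 of 2 red blood cell and 1 of 8 melanocyte markers, beside 43.2% of all genes. The medians of the epidermal list were -0.48 and -0.11 in CSA and 0.47 and -0.32 in vehicle, those of the endothelial list 0.001 and -0.10 in CSA, against 0.24 and -0.01 in vehicle, and those of the immune list -0.09 and -0.15 in CSA and 0.14 and -0.16 in vehicle. The fibroblast medians were 0.03 and -0.09 in CSA, against 0.18 and -0.02 in vehicle, and the muscle medians 0.02 and -0.23 in CSA and 0.16 and -0.05 in vehicle. Between the groups 12 of the 15 epidermal markers were lower in CSA and 3 higher, beside 58.9% lower among all genes. Their median difference was -0.77, and -0.08 without vehicle replicate 1. Of these markers 7 stood 1.5-fold apart without overlap, all lower in CSA (46.7%, all genes 5.9%). The part of the other skin cells in the low values of Slc2a1, Egln3 and Eno3 on vehicle replicate 1 was not tested. The 7 genes 1.5-fold apart were picked for groups that do not overlap, so leaving out 1 array could not turn their direction. Only the sizes are therefore given. Without vehicle replicate 1 the differences were 0.73 for Bnip3, 1.34 for Hk2, -0.99 for Ndrg1 and -1.30 for Pdk2. They were smaller for Slc2a1 at 0.46, Eno3 at 0.26 and Egln3 at 0.10. CSA replicate 1 was the lowest array for 11 of the 19 bulge markers, beside 22.7% of all genes, and the part of this in the low values of Pdk2 and Ndrg1 on that array was not tested. Of the bulge markers 13 were lower in CSA and 6 higher (median -0.24). Those 1.5-fold apart without overlap were 3, all lower in CSA (15.8%, all genes 5.9%), with Cd34 at -1.47 among them.

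Promoters of the 5 genes higher in CSA are shown because most of these genes are known HIF targets, with that of Pgk1, a HIF target whose groups overlapped (0.01 and -0.03 in CSA, -0.42 and -0.01 in vehicle), for comparison. Each is the 250 bases before the RefSeq start on build GRCm38.p6, 5′ to 3′ on the gene's own strand. Capitals mark the core letters of the hypoxia response element, ACGTG or GCGTG, on either strand; CACGTG holds 2 overlapping matches. The windows are chr6:82774455-82774704 on the minus strand for Hk2, chr4:119108495-119108744 on the plus strand for Slc2a1, chr7:138909507-138909756 on the minus strand for Bnip3, chr12:54203875-54204124 on the minus strand for Egln3, chr11:70656926-70657175 on the plus strand for Eno3 and chrX:106186850-106187099 on the plus strand for Pgk1.
Hk2: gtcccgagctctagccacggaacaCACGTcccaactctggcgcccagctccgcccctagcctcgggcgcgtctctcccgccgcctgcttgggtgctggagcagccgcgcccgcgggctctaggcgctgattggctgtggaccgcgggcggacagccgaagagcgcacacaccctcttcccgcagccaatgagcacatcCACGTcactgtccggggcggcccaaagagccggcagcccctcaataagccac
Slc2a1: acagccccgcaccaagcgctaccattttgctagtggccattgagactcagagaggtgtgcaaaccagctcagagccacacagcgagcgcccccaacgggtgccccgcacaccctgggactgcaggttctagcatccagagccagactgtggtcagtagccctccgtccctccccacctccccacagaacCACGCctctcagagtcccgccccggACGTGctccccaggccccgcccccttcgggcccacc
Bnip3: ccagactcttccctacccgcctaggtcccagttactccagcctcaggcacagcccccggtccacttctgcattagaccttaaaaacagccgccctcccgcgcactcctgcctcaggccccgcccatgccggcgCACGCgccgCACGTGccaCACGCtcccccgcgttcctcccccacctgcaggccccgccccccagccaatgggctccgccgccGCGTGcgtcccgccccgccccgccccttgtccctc
Egln3: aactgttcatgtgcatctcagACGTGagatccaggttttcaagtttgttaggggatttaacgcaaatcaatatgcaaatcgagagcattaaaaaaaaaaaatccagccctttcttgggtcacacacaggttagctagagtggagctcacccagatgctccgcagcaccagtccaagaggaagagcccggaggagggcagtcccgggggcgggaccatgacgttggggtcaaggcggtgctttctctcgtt
Eno3: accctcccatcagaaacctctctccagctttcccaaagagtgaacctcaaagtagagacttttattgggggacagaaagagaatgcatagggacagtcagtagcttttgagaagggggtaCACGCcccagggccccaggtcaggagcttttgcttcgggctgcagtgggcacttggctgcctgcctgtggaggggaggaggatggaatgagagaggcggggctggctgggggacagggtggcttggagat
Pgk1: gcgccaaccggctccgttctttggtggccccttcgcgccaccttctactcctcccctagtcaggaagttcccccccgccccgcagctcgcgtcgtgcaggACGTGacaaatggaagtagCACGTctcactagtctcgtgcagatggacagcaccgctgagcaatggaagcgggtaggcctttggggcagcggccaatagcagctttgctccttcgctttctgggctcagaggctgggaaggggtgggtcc

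The window of Hk2 held 2 matches, that of Slc2a1 2, of Bnip3 5, of Egln3 1 and of Eno3 1, and that of Pgk1 held 2. The matches of Bnip3 lie close together between 117 and 99 bases before the start, with 1 more at 35 bases. Of the 39 measured genes with a promoter in the RefSeq table, 36 (92.3%) held a match at 1 start or more, beside 49.9% of 15612 genes on the array. Eno2, Pgam2 and Tpi1 held none in these windows. The core contains CG, and the promoters of the set were richer in CG, with a median of 14 per window beside 6 over all 32851 starts. Among windows with at least 10 CG, 86.8% of 38 in the set and 64.2% of 12417 in all held a match. Genes with many matches were found on both sides of 0: Ldha, with 5 at one of its starts, differed by -0.16, and Ankrd37, with 4, by -0.14. A match is a string of letters and not a site of binding.

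Neighbouring pathways were counted in the same fit, with 0 genes passing over all genes; beside their counts stand 41.1% higher and 5.9% 1.5-fold apart without overlap among all genes. Of 10 other genes of oxygen sensing 9 were higher in CSA and 1 lower (median 0.31, and 0.23 to 0.43 with 1 array left out), and 2 stood 1.5-fold apart without overlap. Cul2, the scaffold of the ligase that degrades HIF, had values of 0.04 and 0.17 in CSA, against -1.08 and -0.35 in vehicle (0.82 ± 0.30, limma unadjusted p = 0.0503), and its difference was 0.46 without vehicle replicate 1. Elob, an adaptor of the same ligase, had values of 0.18 and 0.70 in CSA, against -0.47 and -0.07 in vehicle (0.71 ± 0.28), and its difference was 0.45 without CSA replicate 2. Arnt, the partner of the HIF alpha subunits, differed by 0.48 ± 0.30 with overlap, and by 0.15 without vehicle replicate 1.

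Of 26 other HIF targets known from other cells 16 were higher and 10 lower (median 0.07), and 1 stood 1.5-fold apart, a share of 3.85% and so below the 5.9% of all genes. It was P4ha2, a collagen prolyl hydroxylase gene, at 1.29 and -0.02 in CSA, against -0.92 and -0.55 in vehicle (1.37 ± 0.50, limma unadjusted p = 0.0499). Its difference was 0.71 without CSA replicate 1. The mitochondrial gene Higd1a differed by 0.52 ± 0.23 (0.29 without CSA replicate 1) and Mxi1, an antagonist of Myc, by 0.43 ± 0.28 (0.12 without vehicle replicate 1).

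The 15 genes of the tricarboxylic acid cycle were 8 higher and 7 lower, all between -0.35 and 0.32 (median 0.12). The sign of that median was not stable: it was -0.08 without CSA replicate 2, -0.04 without vehicle replicate 1 and 0.02 after quantile normalization. Ogdh, the oxoglutarate dehydrogenase gene, was the lowest of them at -0.35 ± 0.27, and at -0.08 without CSA replicate 1. Of the 7 other genes around pyruvate dehydrogenase 6 were higher (median 0.29), but the median of the list was 0.025 without CSA replicate 1, 0.12 without vehicle replicate 1 and -0.04 between the arrays numbered 2. The phosphatase subunit gene Pdp1, which reverses the action of the kinases, differed by 0.49 ± 0.24 (0.23 without vehicle replicate 1) and Dlat by -0.40 ± 0.20 (-0.23 without CSA replicate 1). Of 12 genes of glycogen metabolism 4 were higher and 8 lower (median -0.35), but leaving out CSA replicate 1 gave a median of 0.06, and leaving out vehicle replicate 2 gave -0.11. Among them Gaa, the lysosomal glucosidase gene, had values of -0.11 and 0.10 in CSA, against 0.44 and 0.63 in vehicle (-0.54 ± 0.18, limma unadjusted p = 0.0399), and its difference stayed between -0.65 and -0.43 with 1 array left out. The glycogen phosphorylase gene Pygl had values of 0.28 and -0.09 in CSA, against 0.38 and 1.35 in vehicle (-0.77 ± 0.39), and its difference was -0.28 without vehicle replicate 2. Gyg went the other way with overlap (0.56 ± 0.34), and its difference was 0.25 without vehicle replicate 1.

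Of 17 other genes of glucose and lactate transport 8 were higher and 9 lower (median -0.01). That median turned to 0.06 with quantile normalization. Txnip, which responds to glucose and lowers its uptake, had values of 1.41 and -0.10 in CSA, against -0.41 and -0.32 in vehicle (1.02 ± 0.55), and its difference was 0.26 without CSA replicate 1. Slc2a12 differed by -0.64 ± 0.36, and by -0.22 without vehicle replicate 2. The 13 other enzymes of glycolysis and gluconeogenesis were 5 higher and 8 lower (median -0.15, and 0.02 without vehicle replicate 1), with 0 standing 1.5-fold apart. The largest absolute t among them was that of G6pc3, which was higher with overlap (0.62 ± 0.52, and 0.07 without vehicle replicate 1). The 6 remaining genes of the pentose phosphate pathway were 3 higher and 3 lower. Of 14 genes of the pathways that branch off glycolysis 10 were higher and 4 lower (median 0.13, and -0.04 without CSA replicate 2 against 0.35 without CSA replicate 1). The serine synthesis gene Psat1 went the other way, at -0.88 and -0.48 in CSA, against 0.07 and -0.07 in vehicle (-0.68 ± 0.21, limma unadjusted p = 0.0315), and Shmt1, of serine and glycine conversion, differed by -0.49 ± 0.20 (-0.32 without CSA replicate 1).

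**Figure D4:**
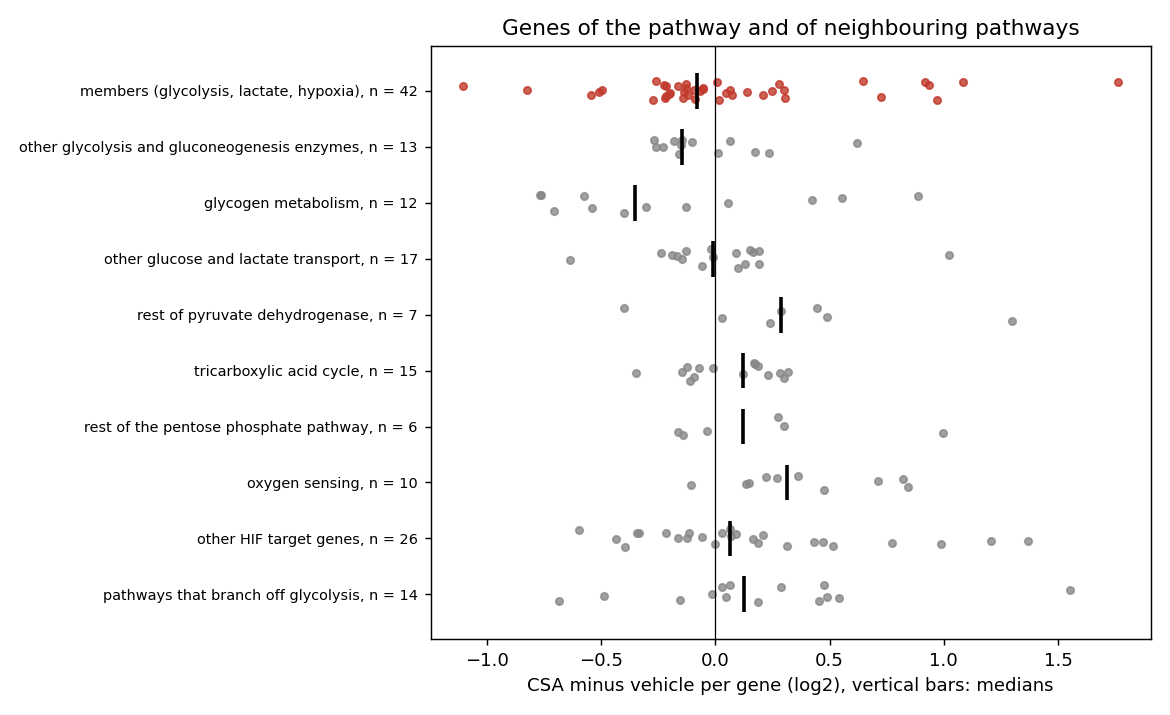
Each point is the CSA minus vehicle difference of 1 gene (horizontal axis, log2), in the 42 genes of glycolysis, lactate and hypoxia (red, top) and in 9 lists of neighbouring pathways (grey); vertical bars are medians. Medians lay between -0.35 for glycogen metabolism (0.06 without CSA replicate 1) and 0.31 for oxygen sensing, and Hk2 at 1.76 is the point farthest from 0.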

How the data were processed

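RNA of sorted bulge stem cells from 4 samples (20 ng each, amplified in 1 round, per the labels' protocols) was measured on one-colour arrays. The deposited series matrix holds log2 values of 28815 rows, centred per row by the authors; the base was taken as 2. Base, baseline and normalization between arrays are not given in the sources used. The submitters' processing notes name the build mm8. Array medians lay between -0.02 and 0.06. Scanner signals were not used here, so precision is limited by the 4 arrays.

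Rows naming 1 gene (21780, with 1605 naming several and 5430 not listed) gave 19935 genes, each represented by its row with the highest mean. For Ldhb that choice may have taken a row that reads a copy. All 42 genes of the set were found under the same symbol in RefSeq. CSA was compared with vehicle in limma 3.58.1 under R 4.3.3 (lmFit, eBayes without trend or block), two-sided, with Benjamini-Hochberg adjustment over all genes and a threshold of 0.05. The code was tested on simulated data with shifts larger than any difference of the set. That test does not show whether differences of the size seen here would be found. The replicates are called biological, but no label says which animals gave them. Members and lists were chosen with earlier results of these data known. All 42 genes are given; array values are given for the hexokinases, for genes 1.5-fold apart without overlap, for the 6 others with the largest absolute moderated t, and for Pfkfb3, Ldha and Pgk1, which were chosen after their values were seen. Up to 3 genes of each other list with the largest absolute t are named. Alternatives were normalization, choice of row, variance model, a filter, the replicate block and leaving out arrays.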

Additional observations from a re-analysis of the deposited data

How the results depend on the processing

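Under 12 alternatives the count of genes passing over the whole table stayed 0; at an unadjusted p under 0.05 the count was 565, 914 with the replicate number as a block, 638 without CSA replicate 1, 1253 without CSA replicate 2, 1410 without vehicle replicate 2 and as few as 381 without vehicle replicate 1. The labels do not say that the number marks a shared batch, and with 2 samples per group the block was used here only. Over rows, CSA 1 minus 2 and vehicle 1 minus 2 had a Pearson r of 0.216. The block changes neither the values nor the mean differences. The 5 and 2 genes of the set 1.5-fold apart without overlap therefore stayed the same by construction. The 1177 genes 1.5-fold apart without overlap became 645 with genes under the 25th percentile of the mean left out (on centred values this filter does not select by signal strength), and 1565 to 3371 with 1 array left out, where groups of 1 and 2 arrays overlap less often by construction. In the set, that filter left fewer genes, 9 higher and 12 lower, with 3 higher ones 1.5-fold apart. Leaving out 1 array gave 2 to 9 genes higher and 2 to 7 lower by that rule; the 2 came without vehicle replicate 1 and the 9 without vehicle replicate 2. Means were higher for 14 to 25 genes and lower for 17 to 28, and the median was -0.14 to 0.17. Between the arrays numbered 1 alone, chosen after seeing the data, 17 were higher and 25 lower (median -0.12), and between those numbered 2, 19 and 23 (median -0.02). Of 173 recomputed differences of 16 named genes 169 kept their direction and 4 turned: Hk1 in its other row (-0.059, tested with every row on its own), without CSA replicate 2 (-0.15) and without vehicle replicate 1 (-0.49), and Pfkfb3 without CSA replicate 1 (-0.74). Many of the 173 could not turn, so the count does not measure stability. The block, the variance models and the filter leave a difference as it is. Leaving out 1 array cannot turn a gene whose groups do not overlap. With 1 array left out Hk1 ranged from -0.49 to 0.98 and Pfkfb3 from -0.74 to 2.68. The cause was not tested. A lone array left in a group is assumed to vary like the others.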

Other observations

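CSA replicate 1 carried high values for several genes outside the set, all chosen after their values were seen. Ddit4, which restrains mTOR signalling, had values of 2.21 and -0.27 in CSA, against -0.08 and -0.40 in vehicle. Pdk4, a pyruvate dehydrogenase kinase induced by fasting, had values of 1.56 and -1.09 in CSA, against -0.97 and -1.16 in vehicle. Egln2, a HIF prolyl hydroxylase gene, had values of 1.58 and 0.16 in CSA, against 0.32 and -0.27 in vehicle. For Ddit4 and Pdk4 the other CSA array lay between the vehicle arrays. For Pfkfb3 of the set it lay below both, at -0.52, and for Hk2 above both, at 0.97.

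Vehicle replicate 1 carried low values for other genes outside the set, also chosen after their values were seen. Over all genes it was the lowest array for 21.2% and the highest for 43.2%. Gnpnat1, an enzyme of hexosamine synthesis, had values of 0.07 and 0.70 in CSA, against -2.40 and 0.07 in vehicle. Gbe1, the glycogen branching enzyme gene, had values of 0.15 and -0.15 in CSA, against -2.10 and 0.33 in vehicle. Ero1a, an oxidase of the endoplasmic reticulum that hypoxia induces, had values of 0.09 and -0.20 in CSA, against -1.56 and -0.09 in vehicle.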
